A study of Solanum lycopersicum with 12 samples.

Results

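The genes described here are those whose values in all 9 libraries of fruits expressing a grapevine sucrose transporter lay strictly above, or strictly below, the values in all 3 WT libraries, both in the scaled counts and in the FPKM. They numbered 4229 of the 22827 genes in the deposited table, 1720 of them higher and 2509 lower in the transgenic fruits. RNA had been sequenced from whole fruits of Micro-Tom, a dwarf tomato cultivar, at 5 DPA (days post-anthesis), with 3 libraries in each of 4 groups. The groups were the untransformed WT and plants of *VvSUC11*-OE, of *VvSUC12*-OE and of *VvSUC27*-OE, each of which carries the coding sequence of 1 sucrose transporter of grapevine behind the constitutive cauliflower mosaic virus 35S promoter. The transgenic plants share the vector backbone, the *Agrobacterium* transformation and the hygromycin selection marker, and no line with an empty vector was analysed here, so these shared steps and the expression of a sucrose transporter cannot be told apart. Each genotype was sampled from its line 5 alone, the *VvSUC11*-OE and *VvSUC12*-OE fruits in the T1 and the *VvSUC27*-OE fruits in the T0 generation. The transcripts of the grapevine genes themselves were not analysed here. Fruits were ground with their developing seeds. The study describes ripe *VvSUC27*-OE fruits as seedless, but reports that their ovules and seeds resembled those of the WT at 5 DPA, with abortion seen at a later stage. In such bulk samples fewer cells of a type and less RNA per cell cannot be told apart.

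Sucrose transporters are proton symporters that load sucrose into the phloem and take it up into sink tissues, and fruits import most of their carbon as sucrose. A young tomato fruit is green and photosynthetic, its pericarp cells are dividing and beginning to expand, and the seeds inside it supply hormones that keep the fruit growing.

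The deposited counts, which by their near-equal totals appear to have been scaled between libraries and are called scaled counts here, summed to between 20530052 and 21795363 per library. On the log2 scale libraries of the same group correlated across genes with r from 0.988 to 0.991, and libraries of different groups with r from 0.887 to 0.961. Where values of the 3 lines follow each other, their order is *VvSUC11*-OE, *VvSUC12*-OE, then *VvSUC27*-OE, and a value after "against" is the WT mean, each over 3 libraries. *SlSUT1* (gene26425), the tomato transporter of phloem loading, was present in every library. Its FPKM were 107, 108 and 116 in the *VvSUC11*-OE, 54.1, 56.4 and 57.8 in the *VvSUC12*-OE, 46.4, 46.7 and 50.3 in the *VvSUC27*-OE and 39.0, 39.6 and 37.8 in the WT libraries. It was itself among the higher genes, with log2FC of 1.47, 0.49 and 0.29 in the 3 lines, whereas *SlSUT2* (gene12376) and *SlSUT4* (gene11593) overlapped with the WT. Genes annotated with words for young seeds and ovules (86 genes, none of them at 0 in every library) summed to 1317 to 1346 FPKM in the WT, 1149 to 1213 in *VvSUC11*-OE, 1288 to 1354 in *VvSUC12*-OE and 1235 to 1258 in *VvSUC27*-OE libraries. Of the 60 that were tested, 3 (5%) were higher (6 without WT replicate 1 or 2) and 6 (10%) lower on one side of the WT, beside 8.78% and 11.6% of all tested genes. Seed storage and late embryogenesis genes (58 genes, none at 0 throughout) summed to 1008 to 1054 FPKM in the WT and to 699 to 714 in *VvSUC27*-OE, but to 1205 to 1337 in *VvSUC11*-OE and 1138 to 1222 in *VvSUC12*-OE libraries. For 39 genes annotated with flower parts the sums were 2627 to 2701.5 FPKM in the WT, 2938 to 2984 in *VvSUC11*-OE, 3053 to 3142 in *VvSUC12*-OE and 2610 to 2661 in *VvSUC27*-OE libraries. Their part in the results below was not tested.

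Of the 19451 genes that reached 10 scaled counts in 3 or more libraries, 1708 (8.78%) were higher and 2248 (11.6%) lower in every transgenic library. A further 12 higher and 261 lower genes did not reach this minimum, and 97 higher and 214 lower genes reached it only through the libraries in which they were high. Most differences were small. The median log2FC, taken as the mean of the 3 lines minus the WT, was 0.58 for the higher and -0.74 for the lower genes, which corresponds to 1.50-fold and 1.66-fold, beside -0.01 over all tested genes. Since the same libraries chose these genes, their changes from the WT, with the limma values given for single genes, are descriptions and no independent test. The SE and FDR rest on the spread between libraries of the same group. They do not measure the spread between independent lines of a construct, of which 1 was sampled. In limma, 876 tested genes (4.50%) were upregulated and 1096 (5.63%) downregulated at an FDR under 0.01 and an absolute log2FC above 1, and 523 of the higher and 876 of the lower genes were among them. The other 353 upregulated and 220 downregulated genes had at least 1 transgenic library within the WT range. All 3 lines passed a log2FC of 1 in size in 291 higher (1.50%) and 602 lower genes (3.09%), and in 43 and 225 genes the change exceeded 8-fold in every line. The lower genes included 216 with 0 scaled counts in all 9 transgenic libraries and 364 with at most 3. Among these 364 genes the highest WT mean was 649.7 scaled counts, and 28 reached 100 on average. Among the higher genes 53 had at most 3 scaled counts in each WT library. At the edge of the definition, gene11815, a nucleobase-ascorbate transporter, was counted as higher with 1372 scaled counts in its lowest transgenic library and 1371 in its highest WT library, whereas gene11404 was not, with 1191 in both. The gap between the groups was under 5% of the WT mean in 429 of the higher and 406 of the lower genes. Fitting the 9 transgenic libraries as 1 group, so that differences between lines entered the spread, left 396 upregulated and 609 downregulated genes. That fit still counted the 9 libraries of 3 lines as independent.

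The 3 lines shared the direction of these genes but often not the size. *VvSUC11*-OE fruits were the farthest from the WT in 1008 of the higher and 1074 of the lower genes, *VvSUC27*-OE fruits in 454 and 764, and *VvSUC12*-OE fruits in 246 and 410. Median log2FC of the higher genes were 0.70, 0.45 and 0.52 in the 3 lines, and those of the lower genes were -0.76, -0.60 and -0.73. A comparison of the 9 transgenic libraries among themselves, which used no WT library, found 3129 of 19041 genes (16.4%) to differ between the lines (limma F-test, FDR under 0.01, line means more than 1 apart on the log2 scale). Of the genes on one side of the WT that could be tested, 324 of 1708 higher (19.0%) and 376 of 1959 lower genes (19.2%) did so. The share was 157 of 291 (54.0%) and 166 of 325 (51.1%) among those in which every line passed a log2FC of 1. These 325 were only part of the 602 such lower genes. The rest did not reach 10 scaled counts in 3 transgenic libraries and could not be compared.

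The genes that rose most in their least affected line had at most 2.33 FPKM on average in WT fruits. *PE1* (gene18846), a pectinesterase that removes methyl groups from cell wall pectin, had FPKM of 996, 1080.3 and 1089 in the *VvSUC11*-OE, 405, 429 and 435 in the *VvSUC12*-OE, 41.8, 43.0 and 40.3 in the *VvSUC27*-OE and 0.770, 0.403 and 0.729 in the WT libraries. It was the most unequal of these genes, 1664-fold, 667-fold and 65.8-fold above the WT in the 3 lines (log2FC = 8.74, SE = 0.11, FDR = 2.83e-21). The lines differed in *PE1* by 4.68 (F-test FDR = 7.15e-25) on the log2 scale. Gene8179 was annotated as a chlorophyllide a oxygenase, the enzyme that makes chlorophyll b from chlorophyll a, and had FPKM of 6.14, 6.04 and 6.81 in the *VvSUC11*-OE, 6.79, 7.54 and 8.31 in the *VvSUC12*-OE, 9.59, 10.1 and 11.8 in the *VvSUC27*-OE and 0, 0.0451 and 0.111 in the WT libraries. The lines lay within 0.79 (F-test FDR = 3.99e-07) of each other on the log2 scale, at least 87.6-fold, 106-fold and 152-fold above a WT level of at most 3 scaled counts (log2FC = 7.53, SE = 0.21, FDR = 1.98e-16). A metallothionein-like gene (gene14308), of a family of small metal-binding proteins, had 34.7, 10.9 and 11.1 FPKM against 0 in the WT, at least 21.78-fold higher in the least affected line. Newly assembled newGene_65, similar to a mannosyltransferase of glycosylphosphatidylinositol anchors, reached 19.3, 11.2 and 17.6 FPKM against 0.214. A GDSL esterase/lipase (gene18126) had 170.4, 52.9 and 42.5 FPKM against 2.33, and an alpha-dioxygenase (gene5983), an enzyme that oxidises fatty acids, had 2.76, 4.40 and 4.97 FPKM against 0.0956. The remaining genes of the leading 10 were a neomenthol dehydrogenase-like gene (gene2123, 42.7, 17.1 and 1.79 FPKM against 0.0909), the vacuolar-processing enzyme gene *VPE11* (gene20110, 6.72, 3.17 and 0.766 FPKM against 0.0124), a gene similar to FLOWERING LOCUS D, a histone demethylase-like protein of *Arabidopsis* (gene14166, 1.53, 0.646 and 0.554 FPKM against 0.0276), and the small heat shock protein gene described next. In gene2123 and *VPE11*, as in *PE1*, the *VvSUC27*-OE fruits were the least changed.

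**Figure D1:**
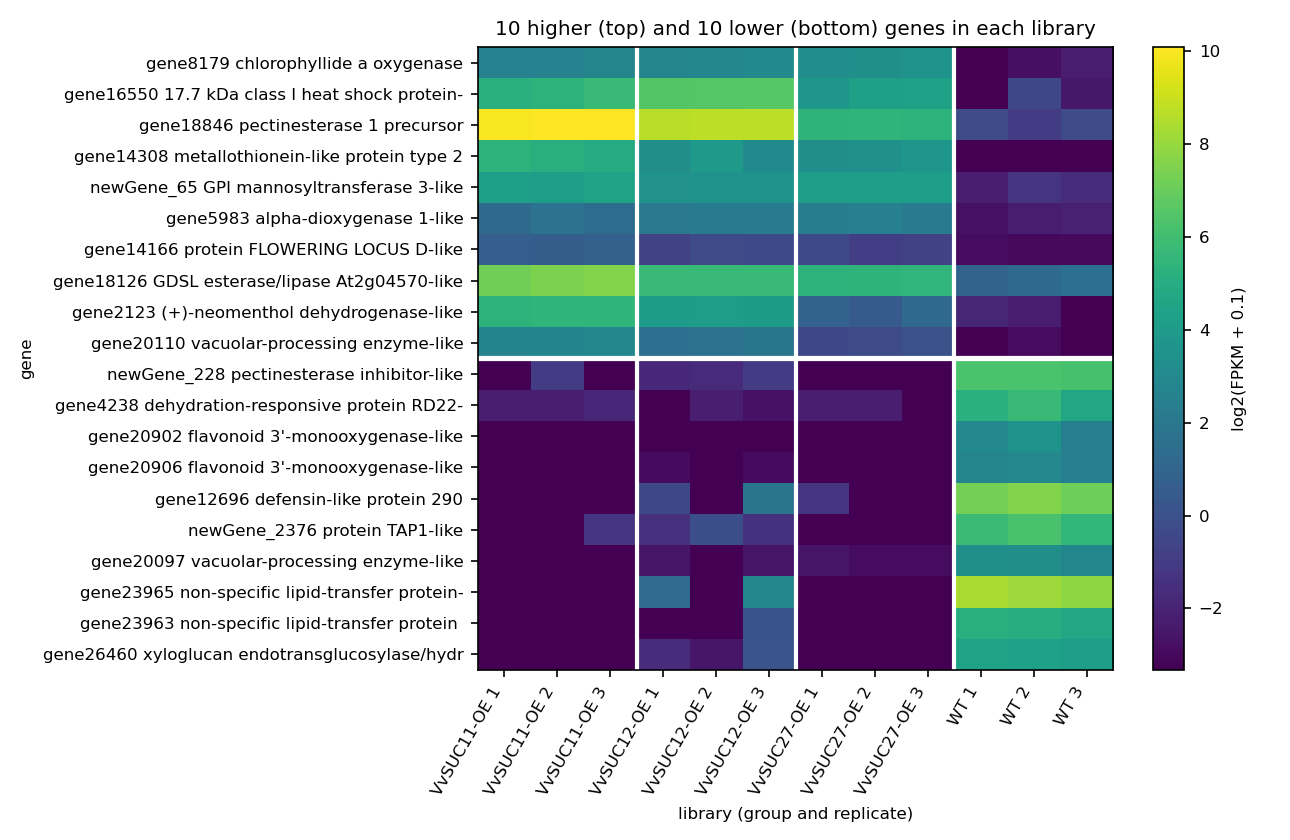
Expression of the 10 higher and 10 lower genes with the largest change in their least affected line, as log2(FPKM + 0.1) (colour) in each of the 12 libraries (columns, group and replicate number). Every transgenic library lies on one side of the WT libraries in each row; gene18846 is near 1000 FPKM in *VvSUC11*-OE and near 40 in *VvSUC27*-OE libraries, while gene20902 is at 0 in all 9 and between 5.34 and 11.2 FPKM in the WT.

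Heat shock proteins had the largest share of higher genes among the 45 lists examined, with all libraries and the deposited scaling. This ranking changed in some alternatives. Without WT replicate 1, 2 or 3 the defensin-like and lipid-transfer list had 44.8%, 41.4% and 44.8% higher, against 32.6%, 35.6% and 34.8% of the heat shock list. It was also above with libraries rescaled to the same total (34.1% against 29.5%), as were MADS-box factors without the *VvSUC27*-OE line (43.3% against 39.4%). Heat shock proteins are chaperones that bind unfolded proteins, and the small ones among them are nearly absent from unstressed tissue. Of 132 tested heat shock proteins and factors, 42 (31.8%) were higher and 3 (2.27%, 6 without WT replicate 2) lower, beside 8.78% and 11.6% of all genes, and 32 were upregulated and 1 downregulated (median log2FC = 0.18). The summed FPKM of the list were 7750 to 7846 in the WT, 10260.5 to 10459 in *VvSUC11*-OE, 9298 to 9565 in *VvSUC12*-OE and 8992 to 9279 in *VvSUC27*-OE libraries. By family, a division made after the values had been seen, 15 of 23 small heat shock proteins, 7 of 18 HSP70, 2 of 5 HSP90, 8 of 54 DnaJ co-chaperones and 4 of 22 heat stress transcription factors were higher. The class I gene *HSP20-1* (gene16550) had FPKM of 36.3, 41.0 and 52.2 in the *VvSUC11*-OE, 91.3, 94.2 and 98.8 in the *VvSUC12*-OE, 13.7, 19.5 and 20.6 in the *VvSUC27*-OE and 0, 0.643 and 0.0845 in the WT libraries, so that the order was *VvSUC12*-OE above *VvSUC11*-OE above *VvSUC27*-OE, with no library of 1 line within the range of another (log2FC = 7.82, SE = 0.40, FDR = 2.43e-12). *HSP17.4* (gene19990), of the cytosolic class II, had 15.1, 26.5 and 18.2 FPKM against 1.237 in the WT, and the mitochondrial *MTSHP* (gene20842) had 78.6, 102 and 63.9 FPKM against 6.87. Cytosolic *HSP90* (gene14852), which matures signalling proteins, had FPKM of 65.0, 66.9 and 64.8 in the *VvSUC11*-OE, 86.7, 93.8 and 95.9 in the *VvSUC12*-OE, 49.3, 52.6 and 53.3 in the *VvSUC27*-OE and 10.1, 10.9 and 10.98 in the WT libraries. It was 6.16-fold, 8.65-fold and 4.86-fold higher than in the WT (log2FC = 2.66, SE = 0.04, FDR = 5.48e-21). A second HSP90-type gene (gene6983) and the HSP70-type genes gene27182 and *hsc70.3* (gene10098) rose from 4.24, 7.10 and 14.5 FPKM to at least 15.96, 47.9 and 49.5 in each line. In addition, 3 transcription factors of the family, all named after their values were seen, were among the higher genes. The factor A-7a (gene22594) had 18.7, 21.2 and 14.0 FPKM against 4.82, B-3 (gene10319) had 2.71, 2.55 and 3.13 FPKM against 0.620, and *HSF24* (gene6324) had 40.9, 42.5 and 41.8 FPKM against 20.3 with a log2FC of 1.01, which fell to 0.94 without WT replicate 1 and to 0.99 without *VvSUC11*-OE replicate 3, and lay just under 1 without the *VvSUC12*-OE line, below the threshold of a call. The KEGG pathway of protein processing in the endoplasmic reticulum, with 46 of 219 genes higher (21.0%) and 10 lower (4.57%), was led by the same small heat shock proteins, *HSP20-1*, *HSP17.4* and *MTSHP*. Its lower genes included a disulfide isomerase-like gene (gene14242, 0.648, 1.89 and 1.32 FPKM against 23.5) and the ubiquitin ligase RMA1H1 (gene23804, 38.7, 38.1 and 17.3 FPKM against 126). Without the *VvSUC11*-OE, *VvSUC12*-OE or *VvSUC27*-OE line, 52, 45 and 52 of the tested heat shock genes were higher, while the share over all genes was then 15.7%, 13.3% and 13.8%.

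**Figure D2:**
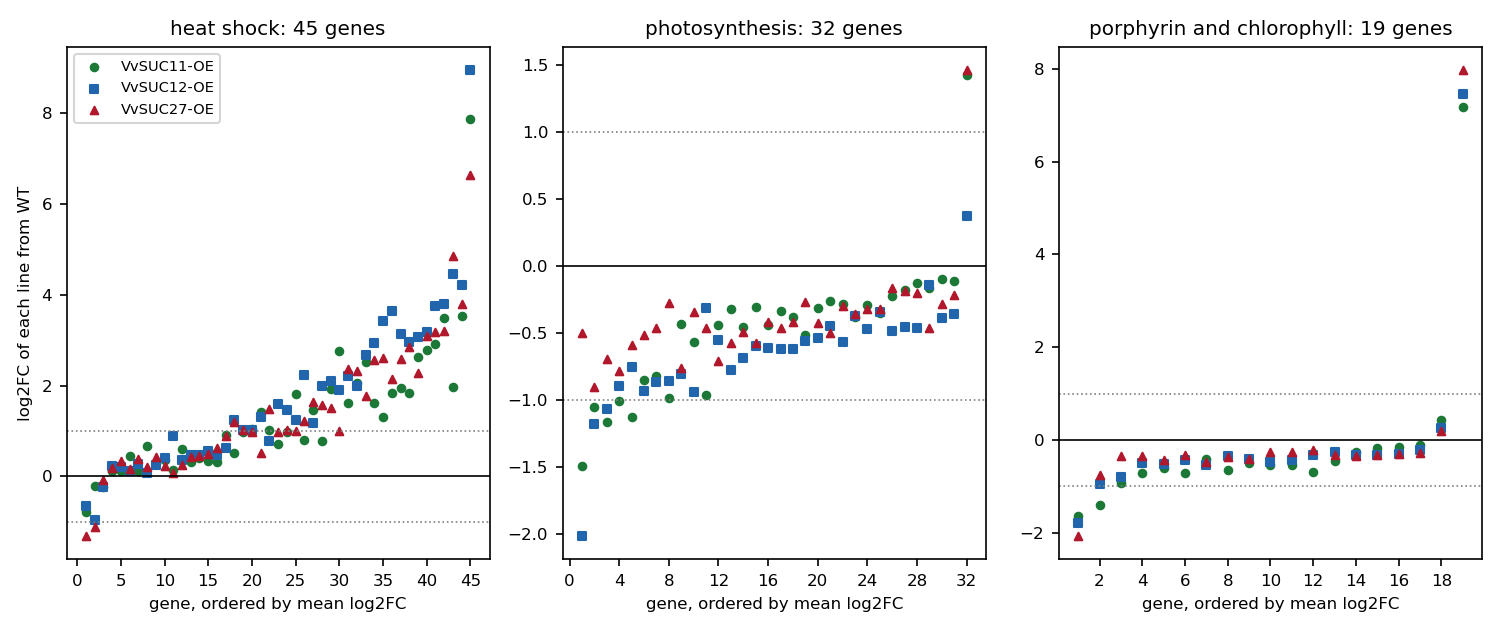
log2FC of each line from the WT for the genes on one side of the WT in the heat shock list (45 genes), the photosynthesis list (32) and the KEGG porphyrin and chlorophyll pathway (19), ordered by mean log2FC, with dotted lines at -1 and 1. Heat shock genes reach 7.82 on average of the lines, whereas 31 photosynthesis genes lie between -1.33 and -0.23, and 17 of the chlorophyll genes lie below 0, with gene8179 at 7.53 above.

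Photosynthesis genes were the opposite case, with many members lower by small amounts. Of 78 tested genes of the photosystems, antennae and electron transport, 31 (39.7%) were lower and 1 (1.28%) higher. The shares over all genes were 11.6% and 8.78%. Only 4 of the 78 were downregulated and 1 upregulated in limma, and 29 of the 31 stayed within a log2FC of 1. Without the *VvSUC12*-OE line 33 of the 78 (42.3%) were lower and 9 (11.5%) higher, beside 16.4% and 13.3% of all genes. The log2FC of the 31 lower genes ranged from -1.33 to -0.23, with a median of -0.49. By component, again divided after the values were known, 9 of 27 chlorophyll a-b binding proteins, 9 of 14 photosystem I subunits, 7 of 15 genes of photosystem II and oxygen evolution, and 5 of 21 genes of ferredoxin, plastocyanin, cytochromes and ATP synthase were lower. Summed over the list, the FPKM were 28064 to 29968 in the WT, 25557 to 27001 in *VvSUC11*-OE, 21020 to 22026 in *VvSUC12*-OE and 25949 to 26960 in *VvSUC27*-OE libraries. Subunit II of the photosystem I reaction centre (gene15253) had FPKM of 788, 745 and 795 in the *VvSUC11*-OE, 692, 658 and 697 in the *VvSUC12*-OE, 738, 697 and 755 in the *VvSUC27*-OE and 1017, 999 and 1062 in the WT libraries. All 9 transgenic values lay below the lowest WT value, by a factor of 1.32, 1.50 and 1.41 in the means of the lines. Plastocyanin (gene12065), which carries electrons to photosystem I, had 623, 631 and 790.2 FPKM against 1071 in the WT, and subunit VI-1 of photosystem I (gene15768) had 92.2, 87.4 and 113 FPKM against 159. These 3 genes were named after their values were seen. The downregulated genes included an antenna protein of type 1B (gene4863, 41.4, 29.5 and 80.6 FPKM against 113) and a psbQ-like protein (gene12428, 8.14, 7.24 and 8.41 FPKM against 15.9). The call of gene4863 was lost without the *VvSUC12*-OE line (log2FC = -0.99) and with the 9 libraries as 1 group (FDR = 0.0206), and that of gene12428 without *VvSUC11*-OE replicate 2 (-0.97) or WT replicate 3 (-0.98), or without the *VvSUC12*-OE line (-0.98). The single higher gene, subunit N of photosystem I (gene19458), had 311, 147 and 298 FPKM against 107, and it lost its call without the *VvSUC11*-OE (log2FC = 0.92) or the *VvSUC27*-OE line (0.90) and with the 9 libraries as 1 group (FDR = 0.0195).

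The enzymes that make chlorophyll followed the photosystems. In the KEGG pathway of porphyrin and chlorophyll metabolism 17 of 45 tested genes (37.8%) were lower, beside 11.6% of all genes. Their log2FC ranged from -1.83 to -0.21, and 2 genes were higher (4.44%, beside 8.78%). The lower genes included enzymes from the first committed step to the late, light-dependent step. Glutamyl-tRNA reductase (gene3190), which commits glutamate to this pathway, had FPKM of 7.19, 8.81 and 8.44 in the *VvSUC11*-OE, 7.45, 7.79 and 7.09 in the *VvSUC12*-OE, 6.33, 6.09 and 6.01 in the *VvSUC27*-OE and 24.6, 26.7 and 24.7 in the WT libraries. It was 3.11-fold, 3.40-fold and 4.12-fold lower than in the WT (log2FC = -1.83, SE = 0.06, FDR = 4.33e-15). The next enzyme, *GSA-AT* (gene9976), had 127, 154 and 162 FPKM against 201. For the magnesium chelatase subunit ChlI (gene23838), which inserts magnesium, the means were 69.5, 75.3 and 78.5 FPKM against 106, and for a protochlorophyllide reductase (gene28233), the light-dependent step, they were 113, 157 and 176 FPKM against 293. The log2FC of gene28233 was -1.03 and moved to -0.85, short of a call, without the *VvSUC11*-OE line. *GSA-AT* and ChlI were named after their values were seen. Against this direction stood gene8179, the chlorophyllide a oxygenase-like gene near 0 in the WT, and a ferrochelatase-2 (gene20089), which belongs to the heme branch and had a log2FC of 0.30. Only 3 of the 45 genes (6.67%) differed between the lines, against 16.4% of all genes. Carbon fixation in photosynthetic organisms also had more lower than higher genes (20 of 71, 28.2%, against 4).

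**Figure D3:**
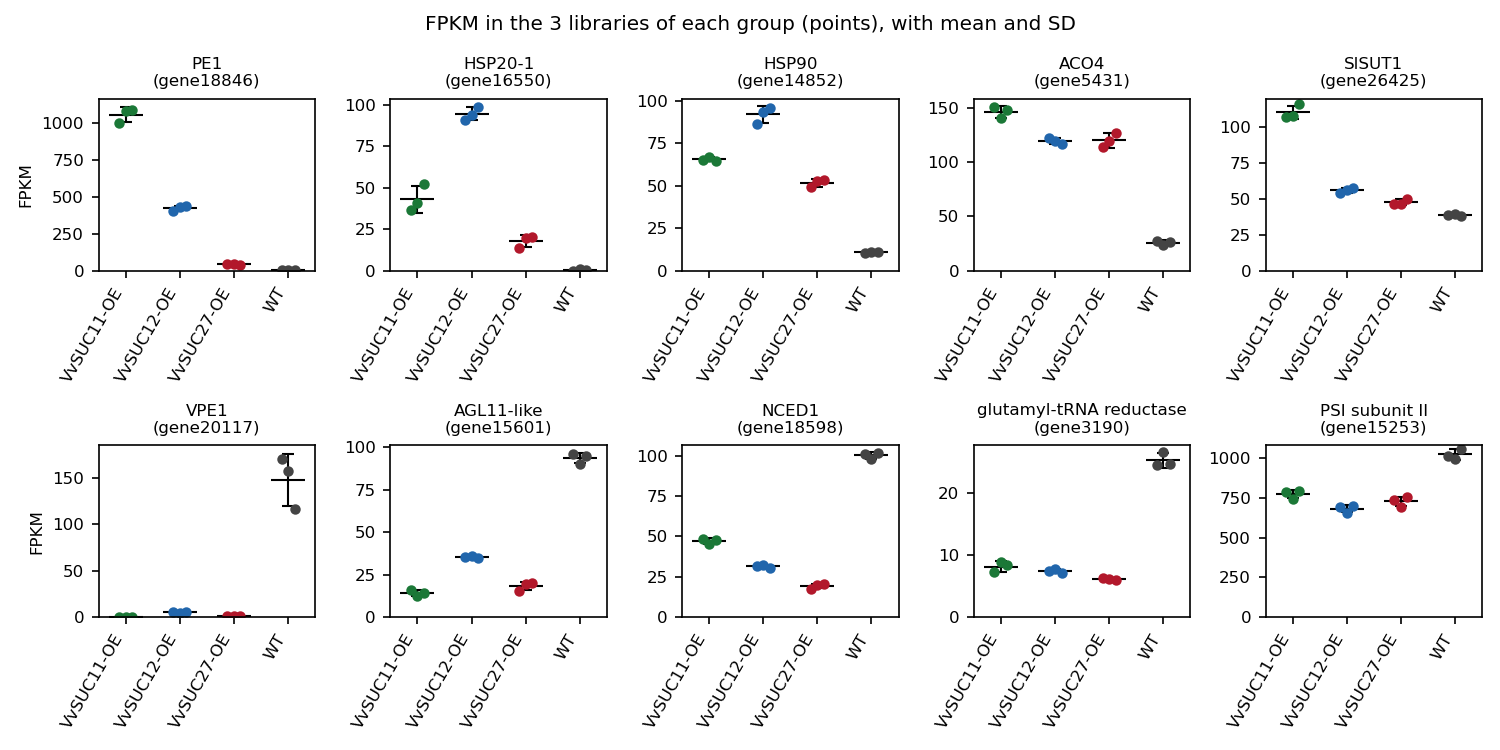
FPKM of 10 genes in the 3 libraries of each group (points), with the mean (bar) and SD (whisker). The upper row holds higher genes, from *PE1*, which differs widely between the lines, to *SlSUT1*; the lower row holds lower genes, from *VPE1* at 0 in *VvSUC11*-OE libraries to photosystem I subunit II, where transgenic libraries are between 658 and 795 and WT libraries between 999 and 1062.

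Genes for the cell wall were found on both sides. Pectin-modifying enzymes had 13 higher (15.9%) and 16 lower (19.5%) of 82 tested genes, beside 8.78% and 11.6% of all genes. Without any 1 WT library 10 of 75 or 76 were lower (13.2% to 13.3%), near the 11.9% to 12.6% of all genes then. Besides *PE1*, the polygalacturonase subunit gene *AroGP2* (gene12215) had 51.1, 16.8 and 4.39 FPKM against 0.352 in the WT (log2FC = 5.39, SE = 0.07, FDR = 2.85e-21), and the pectinesterase *PME2.1* (gene18847), the neighbour of *PE1*, had 123, 52.0 and 27.5 FPKM against 14.0, a call lost with the 9 libraries as 1 group (FDR = 0.0146). A pectinesterase inhibitor-like gene (newGene_228) went the other way and headed the lower genes, with FPKM of 0, 0.403 and 0 in the *VvSUC11*-OE, 0.193, 0.200 and 0.406 in the *VvSUC12*-OE, 0, 0 and 0 in the *VvSUC27*-OE and 79.1, 78.6 and 71.4 in the WT libraries. Each line was at least 136-fold lower than the WT. Of 139 expansins, xyloglucan and cellulose enzymes, 17 (12.2%) were higher and 29 (20.9%) lower. Expansins loosen the wall, and a beta expansin (gene8079) rose from 0.407 FPKM to between 3.52 and 9.34. A xyloglucan endotransglucosylase/hydrolase (gene26460) had 0, 0.458 and 0 FPKM against 19.9, and a second (gene28376) had 44.7, 84.3 and 26.7 FPKM against 157. A pistil-specific extensin-like gene (gene5140), annotated after a wall protein of the pistil, had 34.8 FPKM in the WT and 0.1004, 1.64 and 1.35 in the transgenic fruits. An alpha-L-arabinofuranosidase (gene24930), which trims arabinose side chains, had 0, 0.826 and 0.128 FPKM against 27.1. Peroxidases, which cross-link wall polymers, had 12 of 63 genes higher (19.0%) and 20 lower (31.7%). The anionic peroxidase *TMP1* (gene5281), linked to suberin, had 258, 102 and 156 FPKM against 42.4, whereas peroxidase A2 (gene25009) had 10.1, 48.6 and 24.7 FPKM against 122. One gene that the list's words caught, gene27211, is a superoxide dismutase and no peroxidase (88.8, 65.2 and 132 FPKM against 357).

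Several genes expressed in the WT were close to 0 in every transgenic library. A defensin-like gene (gene12696), of a family of small secreted cysteine-rich peptides, had FPKM of 0, 0 and 0 in the *VvSUC11*-OE, 0.652, 0 and 3.51 in the *VvSUC12*-OE, 0.312, 0 and 0 in the *VvSUC27*-OE and 156, 189.7 and 139 in the WT libraries. A lipid-transfer protein gene (gene23965) had 0, 0 and 0 in the *VvSUC11*-OE, 2.46, 0 and 6.90 in the *VvSUC12*-OE, 0, 0 and 0 in the *VvSUC27*-OE and 333, 275 and 223 in the WT libraries. In both genes 2 of the *VvSUC12*-OE libraries held between 0.652 and 6.90 FPKM, while all *VvSUC11*-OE libraries were at 0. The flavonoid 3'-monooxygenase-like genes gene20902 and gene20906 were at most 0.0307 FPKM in any transgenic library and 5.33 to 11.2 in the WT. A gene similar to TAP1, a tapetum protein of snapdragon (newGene_2376), had 0.107, 0.458 and 0 FPKM against 59.7, and a gene of the dehydration-responsive RD22 type (gene4238) had 0.143, 0.0585 and 0.0795 FPKM against 38.9. In the list of flower part genes, whose summed levels are given above, 3 of 26 tested genes were higher (11.5%) and 4 lower (15.4%), beside 8.78% and 11.6% of all genes. In the whole list of defensin-like and lipid-transfer proteins 16 of 41 tested genes were lower (39.0%) and 12 higher (29.3%). Some of the lower ones reached the count minimum only through the WT. Without WT replicate 1, 2 or 3 the lower genes were 5, 5 and 4 of 29 tested (17.2%, 17.2% and 13.8%, beside 11.9%, 12.6% and 11.9% of all genes). The higher ones included 2 of the most abundant transcripts, a defensin (gene17121) with 2223, 8157 and 6620.3 FPKM against 1631 and the lipid-transfer protein *LTP2* (gene24835) with 6130.0, 2207 and 2321 FPKM against 1407. Their calls were lost with the 9 libraries as 1 group (FDR = 0.0473 and 0.0699), and that of gene24835 also without the *VvSUC11*-OE line (log2FC = 0.61).

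Proteases were more often lower than higher, with 36 of 128 tested genes (28.1%) lower, 14 (10.9%) higher, 27 downregulated and 7 upregulated. Over all tested genes the shares were 11.6% lower and 8.78% higher. Their summed FPKM were 10136 to 10439 in the WT and 6430 to 6644, 7734 to 7771 and 6847 to 6974 in the libraries of the 3 lines. Vacuolar-processing enzymes are proteases that mature vacuolar and seed storage proteins, and of 7 tested members 5 were lower and 2 higher. *VPE1* (gene20117) had FPKM of 0, 0 and 0 in the *VvSUC11*-OE, 5.48, 4.87 and 5.90 in the *VvSUC12*-OE, 0.866, 1.65 and 1.43 in the *VvSUC27*-OE and 171, 157 and 117 in the WT libraries. It was at least 1295-fold lower in *VvSUC11*-OE fruits, and 27.4-fold and 113-fold lower in *VvSUC12*-OE and *VvSUC27*-OE fruits (log2FC = -7.84, SE = 0.18, FDR = 8.47e-18). *VPE7* (gene20097) had 0, 0.0476 and 0.0471 FPKM against 9.03, opposite in direction to *VPE11* (gene20110). Subtilisin-like proteases had 13 of 40 genes lower and 3 higher, led by gene19355 (0.0405, 0.183 and 0.0341 FPKM against 5.62). Among the inhibitors of proteases, *TR8* (gene26574) had 543, 119.5 and 350.5 FPKM against 23.7 and rose, and a cysteine protease inhibitor (gene8430) had 612, 851 and 1028 FPKM against 2248 and fell. For the metallocarboxypeptidase inhibitor gene17077 both measures differed in size. It had 469, 949.6 and 2682 FPKM against 5373, 5.66-fold lower in *VvSUC12*-OE fruits, yet its scaled counts gave a log2FC of -0.61 in that line, and its call was lost without the *VvSUC11*-OE line (log2FC = -0.88) and with the 9 libraries as 1 group (FDR = 0.126).

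**Figure D4:**
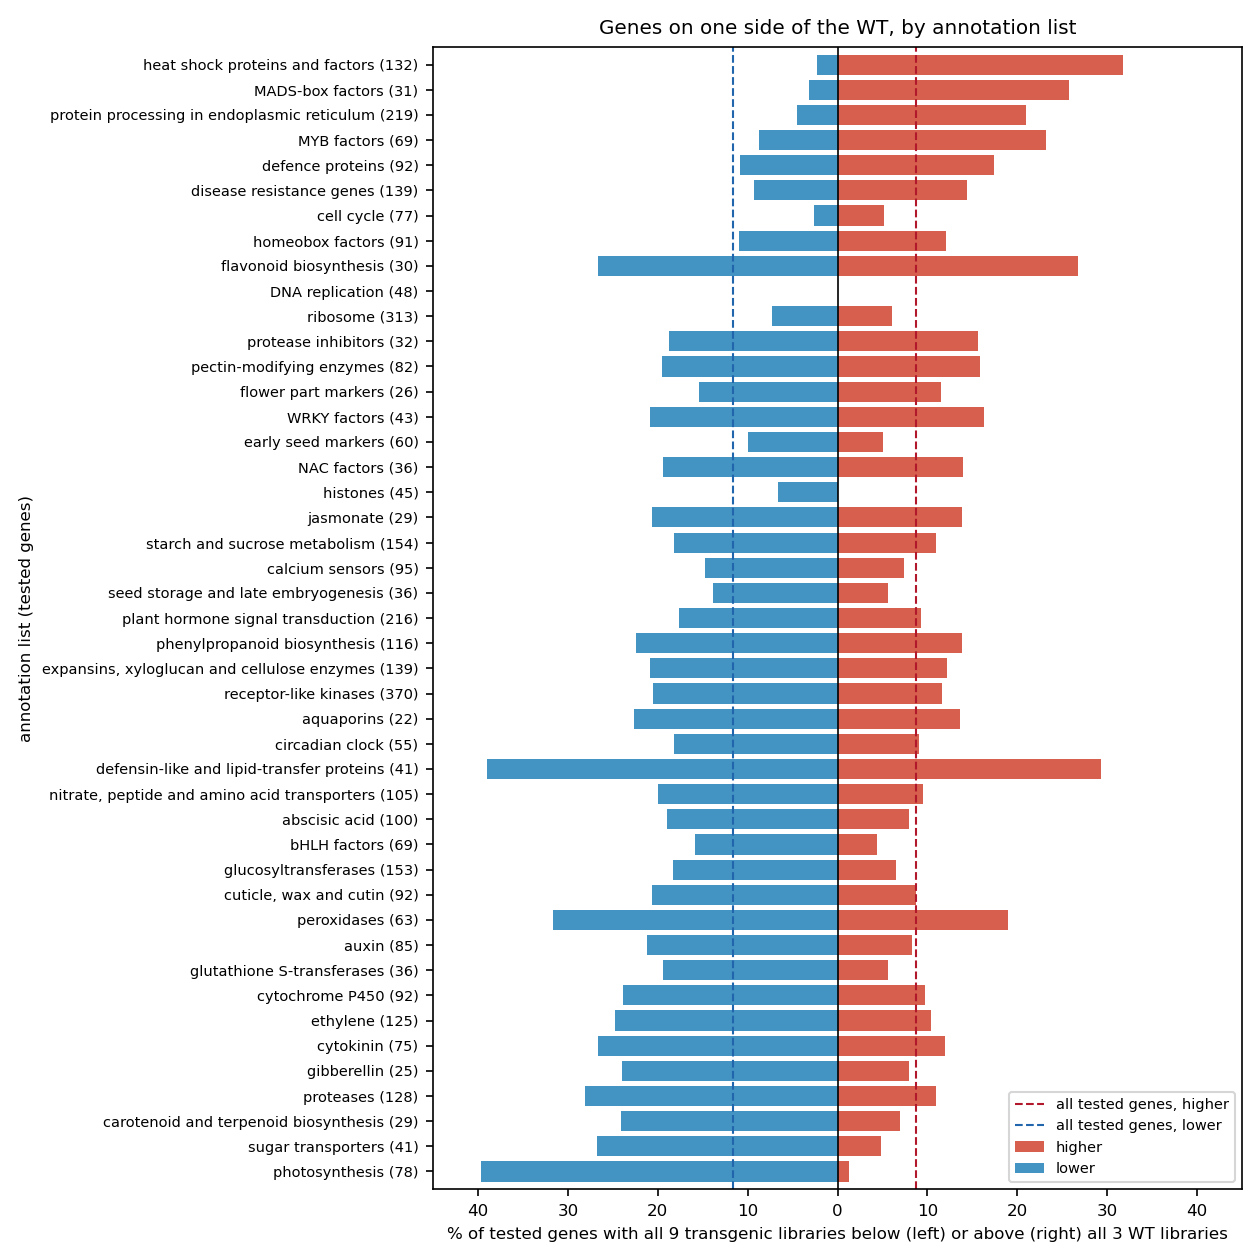
Share of the tested genes of each annotation list (number tested in parentheses) that were below (left, blue) or above (right, red) all 3 WT libraries in all 9 transgenic libraries, with dashed lines at the shares over all tested genes, 11.6% and 8.78%. The heat shock list reaches 31.8% on the right and the photosynthesis list 39.7% on the left, while defensin-like and lipid-transfer proteins are high on both sides.

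Hormone genes were more often lower than higher, as were all tested genes. Of all tested genes 11.6% were lower and 8.78% higher, with 5.63% downregulated and 4.50% upregulated in limma. In the ethylene list 31 of 125 tested genes were lower (24.8%) and 13 higher (10.4%). ACC synthases make the precursor of ethylene and ACC oxidases convert it. Of 6 tested ACC synthases 4 were lower and 0 higher, and of 3 ACC oxidases 2 were higher and 1 lower, by a division made after the values were seen. The oxidase *ACO4* (gene5431) had FPKM of 151, 140.4 and 148 in the *VvSUC11*-OE, 122, 119 and 117 in the *VvSUC12*-OE, 114, 119 and 127 in the *VvSUC27*-OE and 27.1, 23.2 and 26.6 in the WT libraries. It was 5.71-fold, 4.66-fold and 4.68-fold higher than in the WT (log2FC = 2.30, SE = 0.04, FDR = 1.09e-19), and *ACO6* (gene4138) had 411, 165 and 166 FPKM against 60.1. The ethylene-responsive coactivator *ER24* (gene3033) had 91.7, 98.9 and 70.4 FPKM against 11.4. Ethylene-responsive transcription factors were higher in 4 of 66 cases (6.06%) and lower in 18 (27.3%). The lower ones included *ERF-B13* (gene20789, 12.7, 17.6 and 8.71 FPKM against 54.2) and gene18379 (2.78, 5.96 and 2.62 FPKM against 25.1).

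Auxin genes were lower in 18 of 85 cases (21.2%) and higher in 7 (8.24%), with 14 downregulated and 1 upregulated. A GH3-type synthetase (gene23931), which conjugates auxin to amino acids, had 2.64, 1.96 and 0.675 FPKM against 8.63, the repressor IAA22 (gene14509) had 5.602, 7.44 and 2.48 FPKM against 19.8, and a gene of the auxin-induced AIR12 type (gene16710) had 14.2, 33.5 and 10.7 FPKM against 106. For gibberellin, which drives fruit growth, the 25 tested genes held 6 lower (24%) and 2 higher ones (8%, and 4 genes without WT replicate 2), with 5 called in each direction. *GA2ox5* (gene18616), an oxidase that inactivates gibberellin, had FPKM of 0.460, 0.321 and 0.282 in the *VvSUC11*-OE, 1.42, 1.74 and 1.33 in the *VvSUC12*-OE, 0.257, 0.624 and 0.518 in the *VvSUC27*-OE and 11.4, 8.67 and 11.2 in the WT libraries. Of 100 abscisic acid genes 19 (19%) were lower and 8 (8%) higher, beside 11.6% and 8.78% of all genes. *NCED1* (gene18598), whose product catalyses the committed step of abscisic acid synthesis, had FPKM of 48.5, 45.3 and 47.8 in the *VvSUC11*-OE, 31.4, 32.4 and 30.5 in the *VvSUC12*-OE, 17.6, 19.7 and 20.3 in the *VvSUC27*-OE and 101, 97.9 and 102 in the WT libraries, and its fold decrease was 2.12, 3.18 and 5.21 in the 3 lines (log2FC = -1.75, SE = 0.04, FDR = 3.26e-18). Among cytokinin genes 20 of 75 were lower (26.7%) and 9 higher (12%), and in the KEGG pathway of zeatin, a cytokinin, 12 of 35 (34.3%) were lower. The synthesis gene *IPT3* (gene1516) was one of the higher ones with 7.75, 5.22 and 2.13 FPKM against 0.932, and a zeatin O-glucosyltransferase-like gene (gene25116) was lower with 0.214, 0.375 and 0.363 FPKM against 7.64. Such transferases store zeatin as an inactive sugar conjugate and made up 7 of the 12 lower genes of that pathway. The others, looked up after the values were seen, included a cytokinin dehydrogenase (gene19958, log2FC = -5.03), which degrades cytokinins, and 2 further adenylate isopentenyltransferases of synthesis (gene12578, log2FC = -1.77, and gene9769, log2FC = -1.44). The lipoxygenase gene *LOX1.1* (gene19490), on the list of jasmonate genes although 9-lipoxygenases do not make jasmonate, had FPKM of 243, 271 and 273 in the *VvSUC11*-OE, 103, 100.5 and 103 in the *VvSUC12*-OE, 50.04, 52.7 and 49.3 in the *VvSUC27*-OE and 7.11, 6.72 and 7.67 in the WT libraries. The lines differed in it by 2.37 (F-test FDR = 5.12e-20).

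For sugars, the process on which the transgenes act, 11 of 41 tested transporters were lower (26.8%) and 2 higher (4.88%). In starch and sucrose metabolism 28 of 154 genes were lower (18.2%) and 17 higher (11%). Over all tested genes 11.6% were lower and 8.78% higher, so this last share was near that of all genes. The KEGG pathway of starch and sucrose metabolism also holds the pectinesterase *PE1* (log2FC = 8.74), so its counts are not of sugar enzymes alone. The higher transporters were *SlSUT1* and a hexose transporter (gene22889, 7.04, 4.80 and 2.88 FPKM against 1.76). SWEET proteins let sugar out of cells, and a SWEET1-like gene (gene11185) had FPKM of 1.26, 0.929 and 0.587 in the *VvSUC11*-OE, 1.66, 1.66 and 1.10 in the *VvSUC12*-OE, 0.216, 0.503 and 0.272 in the *VvSUC27*-OE and 9.37, 8.41 and 7.56 in the WT libraries, which put every line below the WT (log2FC = -3.49, SE = 0.28, FDR = 2.18e-09). A sugar transport protein 8-like gene (gene15254) had 1.57, 0.274 and 1.80 FPKM against 5.04, and the trehalose-6-phosphate synthase *TPS1* (gene17002) had 5.55, 0.541 and 0.784 FPKM against 11.6. The calls of gene15254 and *TPS1* were lost with the 9 libraries as 1 group (FDR = 0.0275 and 0.023), the lines differing in *TPS1* by 3.43 (F-test FDR = 8.46e-12).

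The flavonoid pathway held genes on both sides. KEGG places 30 tested genes in it, of which 8 (26.7%) were higher and 8 (26.7%) lower, beside 8.78% and 11.6% of all genes. Without any 1 WT library the lower genes were 4 of 25 or 26 tested (15.4% to 16%), beside 11.9% to 12.6% of all genes. Some had reached the count minimum only through the WT. Higher were the chalcone synthases *CHS2* (gene13964) and *CHS1B* (gene23253), the flavanone hydroxylase *F3H* (gene5689), the hydroxylase *F3'H* (gene8898) and a flavonol synthase (gene26361). The other higher ones, a hydroxycinnamoyl transferase (gene16926) and the caffeoyl-CoA O-methyltransferases gene24520 and gene6548, belong to the neighbouring phenylpropanoid branch. *CHS2* had FPKM of 532, 612 and 631 in the *VvSUC11*-OE, 329, 325 and 332 in the *VvSUC12*-OE, 961, 934 and 898 in the *VvSUC27*-OE and 145, 144 and 142 in the WT libraries, and *VvSUC27*-OE fruits were the highest (log2FC = 1.94, SE = 0.03, FDR = 2.03e-19). *F3H* had 159.7, 99.9 and 298 FPKM against 43.3, gene26361 had 531, 349 and 731 FPKM against 176, and *CHS1B* had 268, 168 and 847 FPKM against 102, a call lost with the 9 libraries as 1 group (FDR = 0.0571) and without the *VvSUC27*-OE line (log2FC = 1.00, just under the threshold). Lower were 4 genes annotated as enzymes of anthocyanin and proanthocyanidin synthesis, all of low abundance and, like gene26361, named after their values were seen. The flavonoid 3'5'-hydroxylase gene27227 had 0.00950, 0.310 and 0.146 FPKM against 3.47, a dihydroflavonol reductase (gene5789) had 0.0111, 0.380 and 0.0662 FPKM against 0.970, an anthocyanidin reductase (gene7126) had 0.0262, 0.0732 and 0.0892 FPKM against 1.77, and a leucoanthocyanidin reductase-like gene (newGene_1096) had 1.94, 2.70 and 1.54 FPKM against 5.401. The call of gene5789 was lost with the 9 libraries as 1 group (FDR = 0.0223). The other lower genes of the pathway were 3 deacetylvindoline O-acetyltransferase-like genes, gene5484, gene5485 and gene5486, named after an alkaloid enzyme of *Catharanthus*, and a cytochrome P450 of type 98A2.

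MADS-box factors, which specify floral organs and also act in fruits, had 8 of 31 genes higher (25.8%) and 1 lower (3.23%). A SOC1-like gene (gene14794) had FPKM of 9.51, 9.89 and 10.96 in the *VvSUC11*-OE, 8.55, 8.46 and 8.67 in the *VvSUC12*-OE, 8.27, 9.95 and 10.4 in the *VvSUC27*-OE and 0.729, 0.393 and 1.08 in the WT libraries (log2FC = 3.70, SE = 0.18, FDR = 1.5e-12). Its line means lay within 0.35 (F-test FDR = 0.0318) of each other on the log2 scale, which did not pass the threshold. An AGL12-like gene (gene26722) had 11.5, 9.19 and 7.58 FPKM against 2.64, and *AGL6* (gene2095) had 8.10, 10.3 and 9.98 FPKM against 3.79. *MADS-RIN* (gene12740), known as a master regulator of ripening and named here after its values were seen, had 67.6, 66.3 and 52.1 FPKM against 30.8, with a log2FC of 0.98 that missed the threshold and passed it without the *VvSUC27*-OE line (1.10) or WT replicate 3 (1.03). The lower gene was similar to AGL11 (gene15601), whose *Arabidopsis* counterpart specifies ovules, and had FPKM of 16.1, 12.2 and 14.4 in the *VvSUC11*-OE, 35.1, 35.9 and 34.7 in the *VvSUC12*-OE, 15.4, 19.3 and 19.9 in the *VvSUC27*-OE and 96.1, 90.1 and 95.1 in the WT libraries. The summed level of the young seed and ovule genes, given above, was below the WT range in *VvSUC11*-OE and *VvSUC27*-OE libraries and overlapped it in *VvSUC12*-OE libraries. MYB factors had 16 of 69 genes higher (23.2%) and 6 lower (8.70%), with a myb factor of the APL type (gene15725) at 8.63, 4.46 and 2.62 FPKM against 1.11. Among 36 NAC factors 5 were higher (13.9%) and 7 lower (19.4%), beside 8.78% and 11.6% of all genes, and 2 annotated as NAC 29 moved apart. Gene8342 had 25.7, 19.8 and 20.8 FPKM against 7.33 and gene12427 had 5.62, 0.493 and 1.18 FPKM against 30.9. Of 43 WRKY factors 7 were higher (16.3%) and 9 lower (20.9%), among the latter a WRKY53 gene (gene19420, 1.42, 3.16 and 1.18 FPKM against 16.7). Calcium sensors had 14 of 95 genes lower (14.7%) and 7 higher (7.37%), near the shares over all genes. In limma, however, 12 of the 95 (12.6%) were downregulated and 0 upregulated, beside 5.63% and 4.50% of all genes. CML24 (gene6385) had 31.9, 35.1 and 17.7 FPKM against 123. Of the defence proteins 16 of 92 were higher (17.4%) and 10 lower (10.9%), and the osmotin-like gene21033 had 140.4, 91.9 and 21.82 FPKM against 5.43.

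The lists of growth machinery held smaller shares on one side of the WT than all tested genes, of which 8.78% were higher and 11.6% lower. The shares of the ribosomal genes came nearest to these. No gene of DNA replication was on one side of the WT among 48 tested, and limma called none against the WT. Their median log2FC was -0.30, 0.26 and 0.20 in the 3 lines, and 14 of the 48 (29.2%) differed between the lines, beside 16.4% of all genes. Without the *VvSUC11*-OE line 20 of the 48 (41.7%) were higher in the remaining 6 libraries, beside 15.7% of all genes. Of 45 histone genes 0 were higher and 3 (6.67%) lower, with medians of -0.59, 0.29 and -0.02 in the 3 lines. Between the lines 15 of 44 (34.1%) differed. Cell cycle genes were higher in 4 (5.19%, and 7 genes without WT replicate 3) and lower in 2 (2.6%) of 77 cases. Of 76 cell cycle genes 24 (31.6%) differed between the lines. Of 313 ribosomal genes 19 (6.07%) were higher and 23 (7.35%) lower, and 0 were called, with medians of -0.14, 0.13 and 0.17, and only 4 (1.28%) differed between the lines. Without WT replicate 3 the higher ones numbered 34 (10.9%) and exceeded the 25 lower ones. Without the *VvSUC11*-OE line 164 of the ribosomal genes (52.4%) were higher, beside the same 15.7% of all genes. Their summed FPKM were 88634 to 93106 in the WT, 85590 to 89533 in *VvSUC11*-OE, 104758 to 105974 in *VvSUC12*-OE and 101570 to 103885 in *VvSUC27*-OE libraries.

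Over the 90 KEGG pathways with at least 20 tested genes, 30 had a share of lower genes at least 1.5 times that of all genes and 13 a share of higher genes at least 1.5 times that of all genes. The 4139 tested genes placed in any pathway were 12.7% lower and 8.82% higher, and fewer than 30 pathways reach 1.5 times that lower share. Amino acid synthesis was among the 30, with 45 of 213 genes lower (21.1%) and 14 higher (6.57%), and an arogenate dehydrogenase of tyrosine synthesis (gene17104) had 23.8, 35.5 and 25.0 FPKM against 78.0. 2-Oxocarboxylic acid metabolism, which supplies the branched-chain amino acids, had 15 of 48 lower (31.2%). Membrane traffic was among the 13 with a larger share of higher genes. SNARE proteins fuse vesicles with their target membrane, and 8 of 44 genes (18.2%) were higher and 0 lower, all 8 by less than a log2FC of 1, from 0.15 to 0.41, and none was called. *Syntaxin-31* (gene18370), named after its values were seen, had FPKM of 12.95, 12.6 and 13.04 in the *VvSUC11*-OE, 12.4, 16.04 and 14.1 in the *VvSUC12*-OE, 11.7, 13.3 and 11.8 in the *VvSUC27*-OE and 10.3, 8.91 and 9.11 in the WT libraries. In the KEGG pathway of endocytosis 21 of 135 genes (15.6%) were higher and 4 (2.96%) lower, but the 3 named by the rule in the higher direction were the HSP70-type genes gene27182, *hsc70.3* (gene10098) and newGene_1462, which are chaperones. Fatty acid elongation had 6 of 25 genes higher (24.0%) and 4 lower (16%), with an enoyl-CoA reductase (gene25810) at 20.1, 4.50 and 9.93 FPKM against 1.29.

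**Figure D5:**
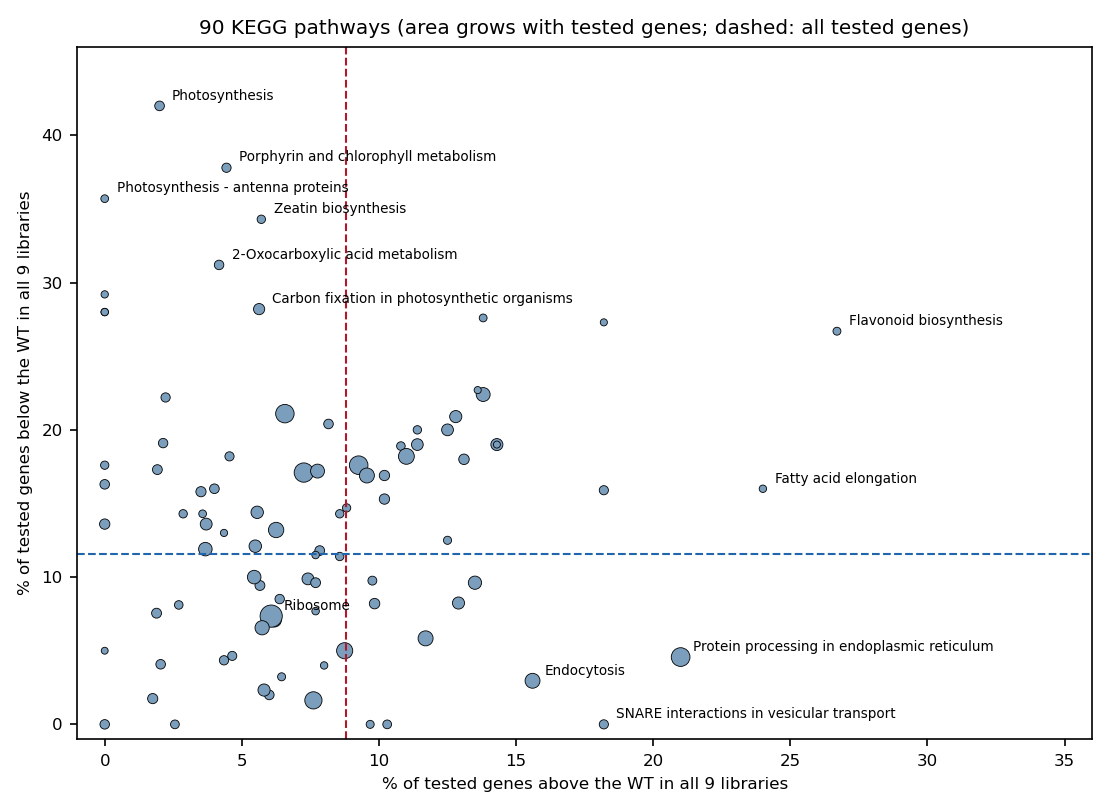
Share of the tested genes of 90 KEGG pathways that were above (horizontal axis, %) and below (vertical axis, %) the WT in all 9 transgenic libraries, with dashed lines at the shares over all tested genes. Photosynthesis (42.0% lower), porphyrin and chlorophyll metabolism (37.8%) and zeatin biosynthesis (34.3%) stand at the top left, protein processing in the endoplasmic reticulum (21.0% higher) and SNARE interactions (18.2%) at the bottom right, and flavonoid biosynthesis is high on both axes.

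Among the most abundant of the called genes was an uncharacterized one (gene16337). It had FPKM of 2965, 3045 and 3428 in the *VvSUC11*-OE, 1348, 1322 and 1432 in the *VvSUC12*-OE, 1182, 1260.4 and 1310.2 in the *VvSUC27*-OE and 89.7, 93.5 and 91.3 in the WT libraries (log2FC = 4.01, SE = 0.03, FDR = 6.69e-25). On the lower side a TUB8-like gene (gene14016), annotated as induced in potato stolon tips, had 1481, 1976 and 1946 FPKM against 4746, and an aquaporin-like water channel gene (gene16387) had 491, 1373 and 1214 FPKM against 1974, whose call was lost without the *VvSUC11*-OE line (log2FC = -0.67) and with the 9 libraries as 1 group (FDR = 0.0511).

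Some of the lower genes sat beside each other. The gene numbers follow the chromosomes, since 99.0% of consecutive genes matched to RefSeq shared a chromosome there. Of 526 numbered lower genes in which all lines passed a log2FC of 1, the next numbered gene did the same in 46 (8.75%), while such genes were 2.85% of all genes. For the higher genes this was 9 of 250 (3.60%) beside 1.36%. The longest run was of 5 flavonoid 3'-monooxygenase-like genes between gene20901 and gene20908. Runs of 3 were formed by gibberellin 2-oxidases (gene18610 to gene18616, including *GA2ox5*), ubiquitin ligases of the PUB22 type (gene203 to gene206) and the acetyltransferase-like genes gene5484 to gene5486. Further runs of 3 held unlike genes. From gene16517 to gene16521 these were annotated as a cytochrome P450 71A9, a glucan endo-1,3-beta-glucosidase and a factor of DNA methylation 4. From gene30195 to gene30201 they were an uncharacterized gene, an EXORDIUM-like gene and a GH3.5 synthetase. Reads of near-identical copies can be divided between them by the counting. Values of single copies in the runs of like-named genes, and of the small heat shock and vacuolar-processing enzyme genes, are therefore uncertain.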

How the data were processed

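Total RNA of 12 fruit samples, 3 of each group, was sequenced by the authors. The authors mapped reads to the tomato genome build SL2.50 with TopHat2, of a version not given in the sources used here, and assembled further genes. The deposited counts are whole numbers with nearly equal totals in all libraries. From these values they appear to have been scaled between libraries and rounded by the authors, which the sources used here do not state, so they were treated as a score and are called scaled counts. The FPKM were computed by the authors as deposited. Columns of the authors' EBSeq comparisons (FDR and log2FC) and tables that repeat the annotation were not used, and 0 columns of per-sample values were left out. Because counts appear scaled, no count model was fitted. Instead, log2(scaled count + 1) of 19451 genes with 10 or more in 3 or more libraries was fitted in limma 3.58.1 (R 4.3.3; group means, trended variance) with Benjamini-Hochberg FDR over all genes tested. The contrast was the mean of the 3 line means minus the WT. Genes at an FDR under 0.01 and an absolute log2FC above 1 were called. The lines were compared by a moderated F-test on the 9 transgenic libraries. The procedure was tested on simulated data in which the lines shared every change and only genes above a minimum WT mean changed. That test covered neither true differences between lines nor changes in genes near 0. Gene sets came from words in the annotation and from KEGG pathways. For a single gene a fold is a ratio of FPKM means, and "at least" marks a bound against a floor of 3 scaled counts per library. The folds of the medians and the counts of genes past 8-fold were taken from the log2FC of the scaled counts. The floor covers counting error only.

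Members, lists and tests were chosen with earlier results of these data known. The text names the tomato sucrose transporters, the 10 genes in each direction with the largest change in their least affected line, the leading called genes of each list and pathway in each direction, and the most abundant called genes. A further 23 genes, the genes cited only by their role in a run, a pathway or at the edge of the definition, and the subdivisions of lists were chosen after the values were seen. Gene symbols were taken from RefSeq (assembly SLM_r2.1) for 7167 of 7271 KEGG identifiers. Alternatives changed the pseudocount, the filter, the unit, the scaling, the grouping, the block and the libraries left out.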

Additional observations from a re-analysis of the deposited data

Results flagged for a closer look

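A pair of genes were singled out because their line means lay more than 4 apart on the log2 scale while all 9 transgenic libraries stayed above the WT. They were chosen by that range, which is therefore a description. *PE1* (gene18846) had 1055, 423 and 41.7 FPKM against 0.634 in the WT. The log2FC of its lines ranged over 4.68, highest in *VvSUC11*-OE and lowest in *VvSUC27*-OE fruits. The neomenthol dehydrogenase-like gene gene2123 had 42.7, 17.1 and 1.79 FPKM against 0.0909 and a range of 4.60, with the same order of the lines. Each line stands for 1 transgenic line, so the transporter, the line and, for *VvSUC27*-OE, the generation cannot be told apart.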

How the results depend on the processing

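A gene had to be separated in more libraries the more lines were included, and 3001, 2566 and 2661 genes were higher without the *VvSUC11*-OE, the *VvSUC12*-OE or the *VvSUC27*-OE line, against 1708. Requiring a log2FC above 1 in size in every line left 291 higher and 602 lower genes. Leaving out 1 library at a time gave 1776 to 2063 higher and 2278 to 2424 lower genes, 764 to 856 upregulated and 808 to 1108 downregulated genes, and 2888 to 3079 genes that differed between the lines. The lowest downregulated counts, 808 to 825, came from leaving out a WT library, when fewer genes expressed only in the WT reached 10 scaled counts in 3 libraries. A minimum of 50 scaled counts on average left fewer genes to test, of which 455 were upregulated, 511 downregulated and 2054 different between the lines. With the 9 transgenic libraries as 1 group 396 were upregulated and 609 downregulated, all of them among the 876 and 1096. Other pseudocounts, scalings and the FPKM kept the counts within 1.5 times. Over the 257 genes followed and their alternatives 5726 values kept their side of the threshold, 140 lost a call and 3 gained one, and 1 changed its sign, *SlSUT4* (gene11593), from -0.03 to 0.0043 without the *VvSUC12*-OE line, neither value being called. The cause of these changes beyond the construction of the alternatives was not tested. The replicate numbers were used as a block in 1 alternative, which gave 869 upregulated and 1105 downregulated genes and 3142 that differed between the lines. Nothing in the labels pairs the numbers, and the 18 same-numbered pairs of libraries of different groups had correlations of their deviations between -0.035 and 0.055. Genes at a few scaled counts rest on little depth, and their fold changes depend on the pseudocount.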
